A study of Mus musculus with 12 samples.

Results

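The nuclear and mitochondrial genes that encode the subunits of the oxidative phosphorylation complexes were examined in sorted mouse macrophages. Members were chosen by gene name. They were the rows whose symbols begin as Ndufa, Ndufb, Ndufc, Ndufs or Ndufv with a number (complex I), Sdha to Sdhd (complex II), Uqcr (complex III), Cox4 to Cox8 with a subunit letter from a to c (complex IV) and Atp5 (complex V), together with the protein genes of mitochondrial DNA. Names holding "-ps" were left out, and at least 100 counts over the 12 libraries were required. Of 45664 genes in the table, 95 names matched and 86 met the count minimum, 78 of them nuclear and 8 mitochondrially encoded. The nuclear members comprised 36 of complex I, 4 of complex II, 8 of complex III, 13 of complex IV and 17 of complex V. All 86 passed the low-count filter of the test. The 9 names under the minimum were Cox7b2, Cox8b, Cox8c, Ndufa4l2 and 5 mitochondrial genes (mt-Atp6, mt-Atp8, mt-Co2, mt-Co3 and mt-Nd4l). A name is not always a place in a complex. Ndufa4 carries a complex I name but is now assigned to complex IV, and Atp5s and Atp5sl are not structural subunits of the synthase. Among the genes that the pattern misses are Cyc1, Cycs, Cox4i1, Cox4i2 and Ndufab1, which are given separately.

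Oxidative phosphorylation couples the oxidation of fuels to the synthesis of ATP in the inner mitochondrial membrane. Complexes I and II pass electrons to ubiquinone, complex III passes them to cytochrome c, complex IV passes them to oxygen, and complex V uses the proton gradient built by complexes I, III and IV to make ATP. Complex II is encoded wholly in the nucleus, while the other complexes combine nuclear subunits with subunits made inside the mitochondrion from mitochondrial DNA. In macrophages the balance between oxidative phosphorylation and glycolysis is known to shift with activation state.

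The cells were sorted as CD11b+ F4/80+ Ly6C- with the viability dye DAPI from C57BL/6 mice labelled male, aged 3 months (young) or 24 months (aged). They came from bone marrow or from the fraction named bone-associated cells, with 3 libraries in each of the 4 groups, and the sample codes tie the marrow and bone-associated libraries of an age to the same 3 mice. No transgene or treatment is given for any group. The step that freed the bone-associated fraction is not given in the labels. Raw read counts were deposited for each gene symbol, and levels are written here as CPM, the count per 1e6 counts of a library size scaled between libraries. Values written with ± are the mean and SD of 3 libraries.

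Library totals ranged from 19564981 to 38317512 counts, and genes with a count from 15715 to 20708, fewer in each bone-associated library than in each marrow library. The genes of the sort were present in every library. Adgre1, which encodes F4/80, ranged from 178 to 1165 CPM, and Itgam, which encodes CD11b, from 526 to 1078 CPM. Ly6c2, a gene of the Ly6C antigen that the gate excluded, was present at 76.0 to 335 CPM. The sort did not give macrophage RNA alone, since 16 neutrophil markers summed to between 23534 and 67156 CPM in every library. Young bone-associated replicate 2 stood apart. It had the fewest counts, and its 6 megakaryocyte markers summed to 1737 CPM against 78.4 and 201 CPM in the other young bone-associated libraries. For the comparisons that use it, the counts of calls are also given without it. Against the male label, Xist had 1482 to 15397 counts in each aged library and 0 in each young library, and 4 Y-linked genes summed to at least 2638 counts in each young and at most 3 in each aged library. Age and this sex-linked pattern cannot be told apart here, and 3 members (Ndufa1, Ndufb11 and Cox7b) are X-linked.

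Sequence that mitochondrial genes share with the nuclear genome is shown first, because it bears on which of them can be counted. Nuclear chromosomes carry old copies of mitochondrial DNA, and a read that matches a copy equally well has no single position. The beginning of mt-Co3 and of an annotated copy, Gm28437, are printed to show how complete the match is, with capitals unused because no base differs. The first line is at chrMT:8607-8666 on the plus strand and the second at chr1:24613912-24613971 on the minus strand of GRCm38.
mt-Co3: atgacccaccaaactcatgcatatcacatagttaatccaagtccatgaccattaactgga
Gm28437: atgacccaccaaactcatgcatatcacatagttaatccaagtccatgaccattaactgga
Over 783 aligned bases from the first base of mt-Co3, the mt-Co3 and Gm28437 transcripts had 0 mismatches. Each of the 13 mitochondrial protein genes was cut into all its 50-base windows, and each window was looked up in the GENCODE M21 transcripts of nuclear chromosomes. All windows of mt-Co2 (100%) were found there, as were 99.9% of mt-Co3, 99.5% of mt-Atp6, 98.8% of mt-Nd4l and 98.0% of mt-Nd3. Over the 12 libraries mt-Co2 had 41 counts, mt-Co3 0, mt-Atp6 2, mt-Nd4l 0 and mt-Nd3 853. Partial sharing was found for mt-Nd4 (62.2% of windows, 137411 counts) and mt-Co1 (51.1%, 647032 counts). Little or none was found for mt-Nd2 (8.19%), mt-Nd5 (7.61%), mt-Nd1, mt-Nd6 and mt-Cytb (0% each), which had between 42447 and 739800 counts. Genes with shares of 98.0% or more had few counts, but below that the counts did not follow the share. Both mt-Nd4 and mt-Co1 had more counts than mt-Nd2 and mt-Nd6. The gene mt-Atp8, whose annotated end overlaps mt-Atp6, had 0% shared windows and 0 counts. The treatment of reads with several positions or over 2 genes is not given in the labels, and its part in these counts was not tested. The counts of mt-Nd3, and the level of mt-Co1 and mt-Nd4 relative to other genes, are therefore uncertain. The strand setting is also not given, so reads of mt-Nd6, which lies on the opposite strand to its neighbours, cannot be told apart from reads of their antisense RNA.

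**Figure D1:**
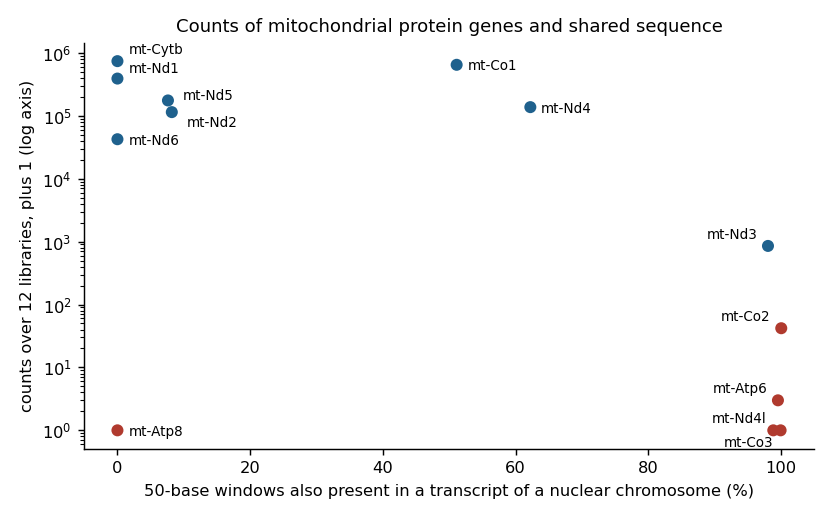
Counts summed over 12 libraries plus 1 (log axis) against the percentage of 50-base windows also present in a transcript of a nuclear chromosome, for 13 mitochondrial protein genes (blue, members, and red, under the minimum of 100 counts). The 5 genes with 98.0% or more shared windows have 853 counts or fewer, and mt-Atp8 has 0 counts with 0% shared windows.

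Sharing was smaller among the nuclear members. Of 77 with transcripts in GENCODE M21, 13 had at least 10% of their 50-base windows in a transcript of another gene, 2 had at least 25% and 0 had 50%. The highest were Atp5g2 (38.3%, most of it with Gm10175) and Uqcrb (25.4%), and the counts of Atp5g2 are uncertain to that extent. Sdhb, Sdhc, Atp5g1 and Atp5g3 kept their age calls in bone-associated cells without young bone-associated replicate 2. Their shares were 0%, 0.0915%, 10.2% and 0%. Ndufb9, Cox5b and Atp5b, whose calls were lost without that library, had shares of 15.6%, 11.9% and 2.13%. Sdhd, Uqcrc1, Uqcrc2, Uqcr10, Ndufa4, Cox8a and Cox7a2 lost their calls as well, and each had a share of 0%. Kept and lost calls were thus both found at low and at higher shares.

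Nuclear members have no common operon, and many are known to carry sites for NRF1, the ETS factor GABP and YY1 near their start. RefSeq promoter windows (GRCm38.p6, 250 bases before to 50 after a start) were matched for 67 of 78 nuclear members, which gave 73 windows. The letters GCGCATGCG, the core of the NRF1 motif, on either strand were present in 11% of member windows and in 1.75% of all 32851 windows. The ETS letters CCGGAAG were present in 21.9% against 8.86%, and the YY1 letters AAGATGGC in 16.4% against 2.75%. An ETS and a YY1 match can share the letters AAG. At least 1 of these 3 was present in 42.5% of member windows and in 12.5% of all windows. The GC box letters GGGCGG were present in 38.4% against 35.7%. A match is a run of letters and not a bound site, and no binding was measured here. Of the members that were lower with age in bone-associated cells, 3 windows are printed, 1 for each motif, with the matching letters in capitals. Each is from the member with the smallest adjusted p in that comparison among those with the motif. The letters were not particular to members that fell. Atp5g1 and Atp5g3, which were called lower, had none of the 3 motifs. Ndufa11 and Atp5sl, which were not called, had NRF1 and YY1 letters. They are Uqcr11 (NRF1, chr10:80406772-80407071, minus strand), Sdhb (ETS, chr4:140961021-140961320, plus strand) and Atp5f1 (YY1, chr3:105959214-105959513, minus strand).
Uqcr11: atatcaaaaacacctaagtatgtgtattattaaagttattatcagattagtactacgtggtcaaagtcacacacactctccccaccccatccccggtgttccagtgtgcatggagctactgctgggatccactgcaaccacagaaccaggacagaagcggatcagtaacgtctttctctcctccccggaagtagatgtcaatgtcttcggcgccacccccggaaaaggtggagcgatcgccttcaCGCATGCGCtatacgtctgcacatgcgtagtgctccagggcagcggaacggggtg
Sdhb: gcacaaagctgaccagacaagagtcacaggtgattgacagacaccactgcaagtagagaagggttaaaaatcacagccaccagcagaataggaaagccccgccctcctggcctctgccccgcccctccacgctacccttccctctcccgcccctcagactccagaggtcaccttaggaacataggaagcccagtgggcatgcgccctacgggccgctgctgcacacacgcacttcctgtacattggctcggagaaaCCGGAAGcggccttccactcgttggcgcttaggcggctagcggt
Atp5f1: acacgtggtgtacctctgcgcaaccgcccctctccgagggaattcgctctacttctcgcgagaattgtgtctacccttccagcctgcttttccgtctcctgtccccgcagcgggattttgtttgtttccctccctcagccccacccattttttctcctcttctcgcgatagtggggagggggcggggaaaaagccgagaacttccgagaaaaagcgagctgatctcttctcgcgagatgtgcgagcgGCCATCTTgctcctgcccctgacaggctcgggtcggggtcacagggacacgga
The capitals in Uqcr11 and Atp5f1 are the reverse complement of the letters searched. The Uqcr11 window also holds the ETS letters outside the capitals.

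The summed level of the nuclear members was highest in the young bone-associated libraries, and that of the mitochondrially encoded members in the aged bone-associated libraries. The 78 nuclear members summed to 8479, 8419 and 8021 CPM in young marrow and to 7296, 7485 and 7255 CPM in aged marrow. They summed to 12788, 16073 and 13786 CPM in young bone-associated libraries and to 10090.1, 9559 and 10126 CPM in aged ones. No 2 of these 4 groups overlapped. The 8 mitochondrially encoded members summed to 5344, 6279.7 and 5955 CPM in young marrow, 5012, 5676 and 4856 in aged marrow, 6036, 4821 and 7821 in young bone-associated libraries and 10388, 7319.8 and 9475 in aged ones. Here young and aged marrow overlapped, as did young and aged bone-associated libraries. The ratio of mitochondrially encoded to nuclear counts in a library, which does not depend on scaling between libraries, was 0.706 ± 0.0658 in young and 0.705 ± 0.0471 in aged marrow. It was 0.472, 0.300 and 0.567 in young and 1.03, 0.766 and 0.936 in aged bone-associated libraries, with no overlap. In bulk RNA, fewer cells of a type and less RNA per cell cannot be told apart, which holds for every level given here.

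**Figure D2:**
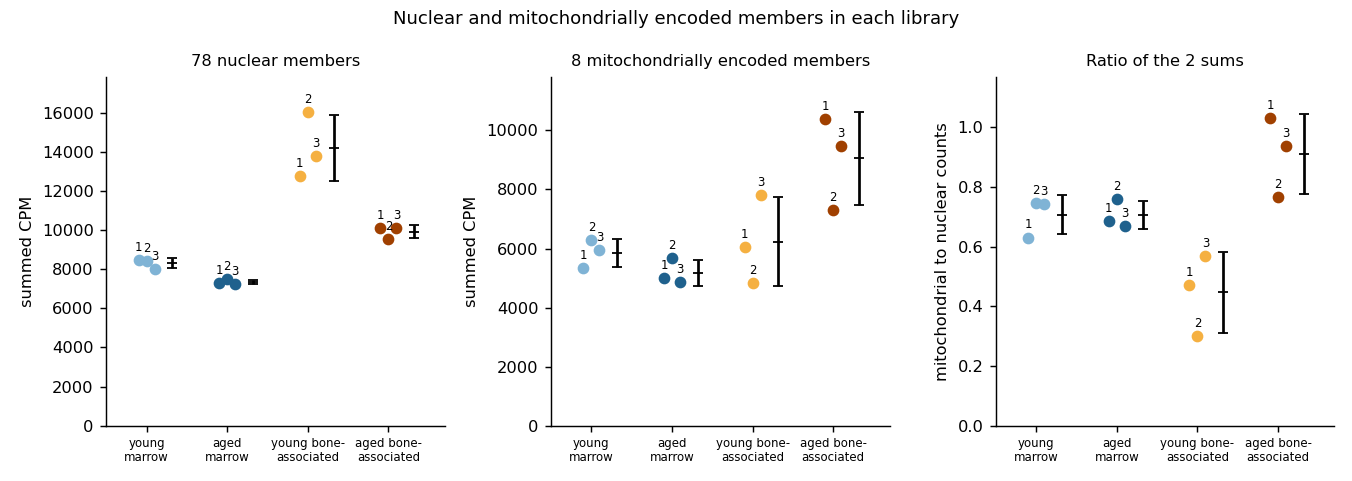
Summed CPM of the 78 nuclear members, summed CPM of the 8 mitochondrially encoded members, and the ratio of the 2 sums of counts, for each library (points, numbered by replicate) with the mean and SD of 3 libraries (black). The nuclear sum is lower and the ratio higher in each aged than in each young bone-associated library, and the marrow groups have ratios between 0.630 and 0.758.

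In bone-associated cells of aged mice, nuclear members of all 5 complexes were lower and mitochondrially encoded subunits of complex I were higher than in young mice. A gene was called where its adjusted p was below 0.05 in the fit over all genes. Of the 78 nuclear members 40 fell and 0 rose, where 4.87% of all genes tested were called lower and 4.89% higher. Of the 8 mitochondrially encoded members 5 rose and 0 fell. The median log2 fold change (aged against young) was -0.48 over nuclear members, of which 73 were below 0, and 0.64 over mitochondrially encoded members, against -0.01 over all genes tested. The number of calls rested on single libraries. Of 45 calls, 6 were left when young bone-associated replicate 2 was taken out and 19 without young replicate 3. Without aged replicates 1, 2 and 3 there were 23, 22 and 25 calls. Calls over all genes tested also went down, from 9.75% to 4.55% without young replicate 2 and 4.34% without young replicate 3. They were 8.57%, 8.01% and 7.95% without aged replicates 1, 2 and 3. The 6 calls without young replicate 2 were Atp5g1, Atp5g3, Sdhb, Sdhc, mt-Nd2 and mt-Nd6. A fit of these 2 groups alone called 11 members and 7.06% of all genes tested. The direction was steadier, with 72 to 76 of 78 nuclear members below 0 and 7 of 8 mitochondrially encoded members above 0 without any 1 of the 6 libraries. Without young replicate 2 the nuclear median was -0.38 and the mitochondrial median 0.50, with 0 calls among nuclear members of complexes I, III and IV. Scaling by library size alone, which moved the median of all genes to -0.14, and DESeq2 called more members. They called 12.1% and 10.9% of the genes that each tested. Under the first, 60 nuclear members were lower and 3 mitochondrially encoded members higher, and under DESeq2 53 nuclear members were lower, with 5 mitochondrially encoded members higher and 1 lower.

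**Figure D3:**
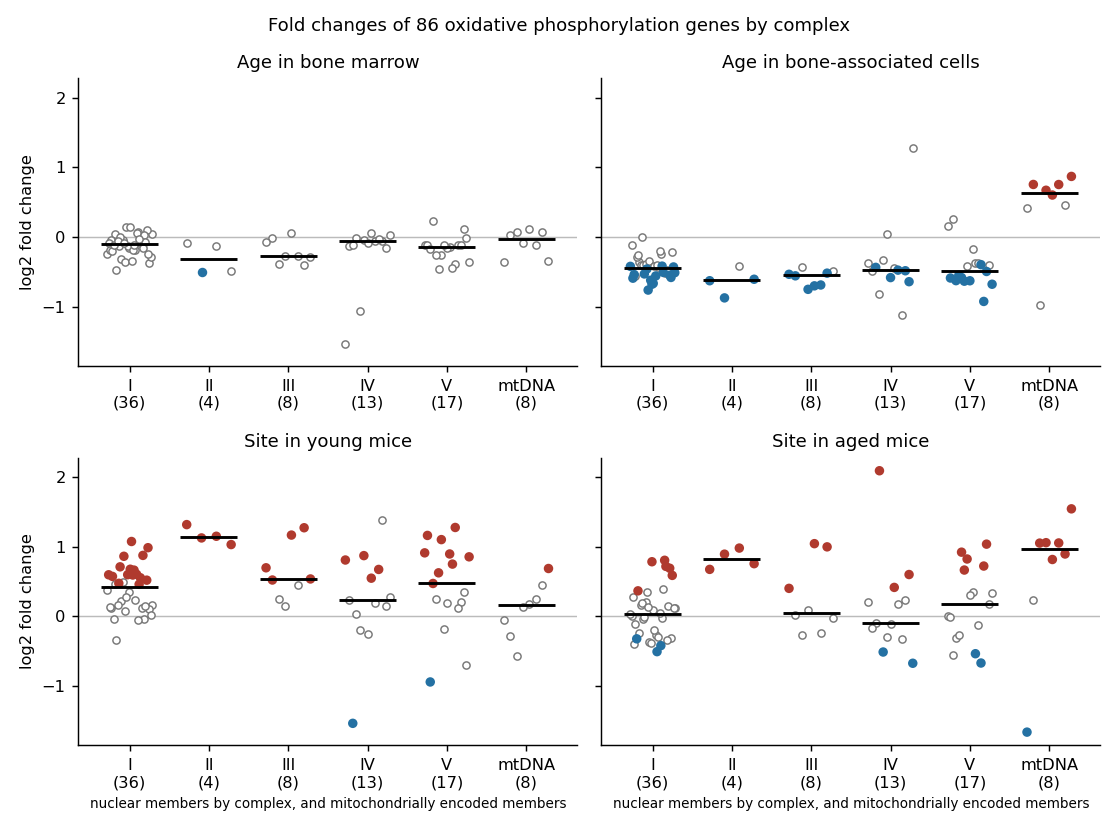
Log2 fold changes of the 86 members in 4 comparisons (aged against young in the upper panels, bone-associated against marrow in the lower panels), with nuclear members by complex and mitochondrially encoded members apart, numbers of members in brackets and medians as black lines. Blue and red points were called lower and higher (adjusted p below 0.05), open points were not called, and in aged bone-associated cells the nuclear medians lie below 0 and the mitochondrial median above 0.

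Complex I, which oxidises NADH, fell in 16 of its 36 nuclear members, with a median log2 fold change of -0.44. Its summed level was 3491 ± 445 CPM in young and 2572 ± 151 CPM in aged bone-associated libraries. The 7 nuclear genes of the catalytic core had 4 calls and a median of -0.47. The other 29 genes with a complex I name, Ndufa4 among them, had 12 calls and a median of -0.42. Ndufb9, an accessory subunit of the membrane arm, was at 115, 163 and 131 CPM in young and 86.5, 88.1 and 83.9 CPM in aged libraries. It fell, with a log2 fold change of -0.66 (SE 0.14, adjusted p = 0.0149). Ndufc1, another accessory subunit, went from 49.5 ± 11.04 to 29.3 ± 2.63 CPM (-0.76, SE 0.17, adjusted p = 0.0180). Ndufa4, the subunit with a complex I name that is placed in complex IV, went from 144 ± 31.4 to 90.4 ± 6.17 CPM (-0.68, SE 0.15, adjusted p = 0.0194). For each of these 3 genes all aged libraries lay below all young ones. Without young bone-associated replicate 2 none of the 3 passed. Ndufa11, an accessory membrane subunit, had levels of 61.2 ± 7.54 and 61.2 ± 5.62 CPM in young and aged libraries, with a log2 fold change of 0.00. Ndufab1, the acyl carrier protein of the mitochondrion and a complex I subunit outside the name pattern, was at 28.8, 40.7 and 33.6 CPM in young and 18.1, 21.6 and 19.2 CPM in aged libraries. It fell (-0.81, SE 0.16, adjusted p = 0.0120), with an adjusted p of 0.0498 without young bone-associated replicate 2 and 0.0589 in a fit of the compared groups alone.

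Complex II, succinate dehydrogenase, links the tricarboxylic acid cycle to the respiratory chain and fell in 3 of its 4 genes. Sdhc, a membrane anchor subunit on chromosome 1 (171127165 to 171150603, GRCm38), was at 165, 202 and 178 CPM in young and 105, 101 and 91.7 CPM in aged libraries. It fell (log2 fold change -0.87, SE 0.13, adjusted p = 0.00208), and no aged library reached the lowest young one. Sdhb, the iron-sulfur subunit whose promoter window is printed with its ETS letters, was at 328, 459 and 347 CPM in young and 258, 229 and 259 CPM in aged libraries (-0.60, SE 0.13, adjusted p = 0.0141). Sdhd, the other membrane anchor, went from 344 ± 49.6 to 223 ± 19.5 CPM (-0.62, SE 0.15, adjusted p = 0.0223), and did not pass without young bone-associated replicate 2. Sdha, the flavoprotein subunit, did not pass, at 692 ± 45.3 and 519 ± 59.2 CPM (-0.41, adjusted p = 0.116).

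Complex III fell in 6 of its 8 nuclear members, with a median of -0.54 and a sum of 1700.5 ± 223 CPM at the young and 1145 ± 65.5 CPM at the aged stage. Uqcrc2, a core subunit, was at 213, 261 and 245 CPM in young and 146, 133 and 167 CPM in aged libraries (-0.69, SE 0.14, adjusted p = 0.0134). Uqcr10 and Uqcr11 encode small subunits of the complex. Uqcr10 went from 104 ± 20.7 to 61.9 ± 3.25 CPM (-0.75, SE 0.16, adjusted p = 0.0143). Uqcr11, whose promoter window is printed with its NRF1 letters, went from 88.6 ± 13.3 to 54.6 ± 5.05 CPM (-0.70, SE 0.15, adjusted p = 0.0145). Uqcrc1, the other core subunit, went from 671 ± 68.9 to 457 ± 65.0 CPM (-0.55, SE 0.13, adjusted p = 0.0181). Groups did not overlap for any of these 4, and none of the 4 passed without young bone-associated replicate 2. The members that did not pass were Uqcrh (-0.43) and Uqcrq (-0.48, adjusted p = 0.0505). Cyc1, the cytochrome c1 of the same complex, is outside the name pattern and fell from 304 ± 38.4 to 163 ± 10.98 CPM (-0.90, SE 0.13, adjusted p = 0.00173). Cycs, the cytochrome c that carries electrons from complex III to complex IV, did not pass, at 93.0 ± 16.6 and 72.1 ± 7.05 CPM (-0.37, SE 0.14, adjusted p = 0.112).

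Complex IV, cytochrome c oxidase, fell in 5 of its 13 nuclear members, Cox8a, Cox7a2, Cox7b, Cox5b and Cox6c. Cox8a was at 167, 199 and 189 CPM in young and 129, 144 and 125 CPM in aged libraries (-0.48, SE 0.11, adjusted p = 0.0185). The called fold changes of the complex ran from -0.64 for Cox7b to -0.43 for Cox5b. Cox4i1, the main subunit 4 gene, is outside the pattern and went from 425 ± 53.9 to 308 ± 11.5 CPM (-0.47, SE 0.13, adjusted p = 0.0435). That call was lost without any 1 of the 6 bone-associated libraries, at an adjusted p of 0.0520 to 0.147, and in 3 other alternatives of 7. Cox7a2l, which encodes a factor of respiratory supercomplexes and not a regular subunit of the oxidase, was at 53.2 ± 4.03 and 55.0 ± 5.02 CPM (0.05).

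Complex V, the ATP synthase, fell in 10 of its 17 nuclear members, with a sum of 6009 ± 664 CPM at the young and 4053 ± 152 CPM at the aged stage. Atp5b, the catalytic beta subunit, was at 2069, 2470 and 2220 CPM in young and 1573, 1372 and 1435 CPM in aged libraries. It fell (log2 fold change -0.63, SE 0.13, adjusted p = 0.0127), with no overlap. Atp5a1, the alpha subunit, fell by 0.49 (SE 0.11, adjusted p = 0.0198). Neither passed without young bone-associated replicate 2. The membrane rotor is a ring of c subunits, and Atp5g1, Atp5g2 and Atp5g3 encode the same mature c subunit behind different import sequences. Atp5g3 was at 315, 473 and 340 CPM in young and 192, 213 and 191 CPM in aged libraries. It had the lowest fold change of any called member (-0.92, SE 0.14, adjusted p = 0.00292). Atp5g1 was at 121, 162 and 131 CPM in young and 90.3, 90.7 and 85.9 CPM in aged libraries (-0.63, SE 0.12, adjusted p = 0.00974). Atp5g2 did not pass (-0.40, adjusted p = 0.212). Exon length was the union of all annotated exons of a gene, 2181 bases for Atp5g3 and 4912 for Atp5g1. These lengths set the height of their ratio but not how it compares between groups. Per kilobase of exon, the ratio of Atp5g3 to Atp5g1 was 6.22 ± 0.249 in young and 6.58 ± 0.109 in aged marrow. It was 6.10 ± 0.402 in young and 5.02 ± 0.253 in aged bone-associated libraries. The last group lay below each of the others without overlap, and this ratio was chosen after its values were seen. Atp5s and Atp5sl, the members that are not structural subunits, had fold changes of 0.25 and 0.16 and did not pass.

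The 5 nuclear members above 0 were Ndufa11, Cox7a2l, Atp5s, Atp5sl and Cox6a2, named after their values were seen. None of them was called. Cox6a2, a muscle form of a complex IV subunit, had few counts, with 1.80, 1.15 and 2.07 CPM in young and 6.60, 2.96 and 2.67 CPM in aged libraries (1.28, SE 0.53, adjusted p = 0.146).

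Members encoded by mitochondrial DNA moved the other way in aged bone-associated cells. These transcripts are cut from long precursors that are read from both strands of the mitochondrial chromosome. All 5 calls were complex I subunits (mt-Nd1, mt-Nd2, mt-Nd4, mt-Nd5 and mt-Nd6). mt-Nd2 was at 312, 269 and 430 CPM in young and 743, 502 and 602 CPM in aged libraries, and it rose (log2 fold change 0.87, SE 0.18, adjusted p = 0.0117). mt-Nd6 was at 107, 91.7 and 131 CPM in young and 218, 171 and 169 CPM in aged libraries (0.75, SE 0.15, adjusted p = 0.0101). For both, the aged libraries all lay above the young ones. mt-Nd4 was at 379, 316 and 501 CPM in young and 707, 540 and 658 CPM in aged libraries (0.67, SE 0.16, adjusted p = 0.0233). mt-Nd5 was at 462, 332 and 566 CPM in young and 881, 652 and 760 CPM in aged libraries (0.75, SE 0.21, adjusted p = 0.0394). mt-Nd1 was at 1028, 897 and 1346 CPM in young and 1958, 1292 and 1720 CPM in aged libraries (0.60, SE 0.17, adjusted p = 0.0464), where the groups overlapped. Without young bone-associated replicate 2, mt-Nd1, mt-Nd4 and mt-Nd5 did not pass, nor did mt-Nd1 and mt-Nd5 under scaling by library size alone (adjusted p = 0.0788 and 0.0571). mt-Cytb, of complex III, was at 2242 ± 569 and 3079 ± 508 CPM (0.46, adjusted p = 0.133), and mt-Co1, of complex IV, at 1592 ± 409 and 2123 ± 408 CPM (0.42, adjusted p = 0.189). mt-Nd3, with 20 to 58 counts in each bone-associated library, was at 2.32, 2.08 and 1.93 CPM in young and 1.42, 0.910 and 0.891 CPM in aged libraries (-0.97, adjusted p = 0.210). Neither mitochondrial rRNA gene was called, with mt-Rnr1 at 0.24 (adjusted p = 0.447) and mt-Rnr2 at -0.08 (adjusted p = 0.726). The ratio of member counts from mitochondrial DNA to mitochondrial rRNA counts was 3.28, 2.86 and 4.09 in young and 5.99, 4.45 and 5.17 in aged bone-associated libraries.

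**Figure D4:**
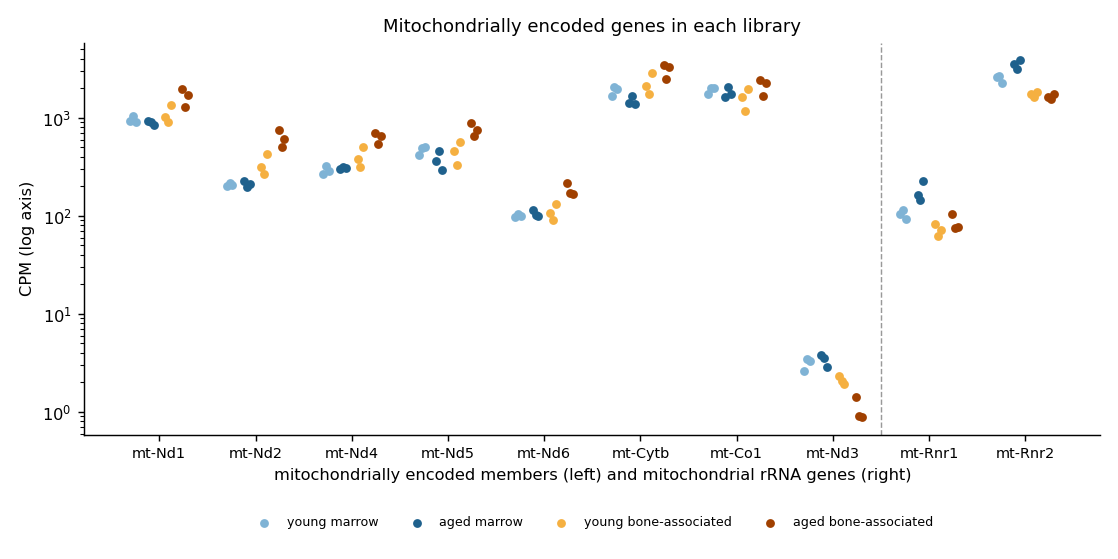
CPM (log axis) in each library of the 8 mitochondrially encoded members (left of the dashed line) and the 2 mitochondrial rRNA genes (right), with the groups by colour. Aged bone-associated libraries are highest for mt-Nd2, mt-Nd4, mt-Nd5 and mt-Nd6, while aged marrow libraries are highest for mt-Rnr1 and mt-Rnr2.

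Markers of other cells moved between the same bone-associated groups. The 15 erythroid markers in the table summed to between 12735 and 23756 CPM in young and 2946 and 8070.0 CPM in aged libraries, with 7 of 15 called lower. Neutrophil markers summed to between 51089.9 and 67156 CPM in young and 23534 and 41247 CPM in aged libraries (8 of 16 lower), and osteoclast markers to between 9543 and 10081 CPM and 2647 and 4805 CPM (6 of 9 lower). Cell cycle genes summed to between 2899 and 3299 CPM and 1309 and 2185 CPM (6 of 26 lower). B cell and plasma cell markers summed to between 937 and 1284 CPM in young and 24669 and 29367 CPM in aged libraries (8 of 14 higher), and monocyte markers to between 2799 and 3404 CPM and 5046 and 6680.1 CPM (4 of 8 higher). Macrophage markers summed to between 13559 and 14932 CPM in young and 11261 and 15146 CPM in aged libraries (5 of 14 lower). In these 2 groups 0 of the erythroid, neutrophil, osteoclast, B cell and monocyte markers were at 0 in all libraries of a group. Of the other lists, T and NK cell markers had 2 called higher and 1 lower of 10, osteoblast and stromal markers 1 higher and 2 lower of 13, megakaryocyte markers 1 lower of 6 and endothelial markers 1 higher of 6. Cd8a was at 0 in all young and Gzma and Sp7 in all aged bone-associated libraries. Without young bone-associated replicate 2, calls went to 3 lower erythroid, 7 lower neutrophil, 3 lower osteoclast and 1 lower cell cycle gene, and to 7 higher B cell and plasma cell and 3 higher monocyte markers. The part of these cells in the members' levels was not tested.

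In bone marrow, few members were called between ages, though most nuclear fold changes were below 0. Of 78 nuclear members 1, Sdhc, was called lower and 0 higher, where 3.08% of all genes were called lower and 4.37% higher, and 0 of the 8 mitochondrially encoded members were called. With an unadjusted p below 0.05 there were 14 members, and the share of all genes at that threshold was not counted. The median log2 fold change was -0.12 over nuclear members, of which 65 were below 0, and -0.03 over mitochondrially encoded members. Sdhc was at 85.2, 83.4 and 81.2 CPM in young and 52.7, 55.8 and 67.8 CPM in aged marrow, without overlap, and fell (log2 fold change -0.50, SE 0.13, adjusted p = 0.0307). Without single libraries other than aged replicate 3 its adjusted p was between 0.0839 and 0.148. The count changed with the tool. DESeq2 and scaling by library size alone each called 8 members, all lower, among them Atp5b, Atp5g1, Atp5o, Ndufa12, Sdhc, Sdhd and Uqcrfs1 in both. They called 7.83% and 8.4% of the genes that each tested, in either direction. Summed levels of complexes II, III and V were lower in each aged than in each young marrow library, at 700 ± 35.1 against 598 ± 35.1 CPM, 955 ± 35.0 against 818 ± 12.02 CPM and 3081 ± 34.3 against 2561 ± 175 CPM. Those of complexes I and IV overlapped, at 2536 ± 167 against 2369 ± 57.6 CPM and 1035 ± 90.6 against 999 ± 40.1 CPM. The mitochondrial rRNA genes, which are not members, rose in aged marrow. mt-Rnr2, the 16S rRNA, went from 2531 ± 209 to 3516 ± 354 CPM (0.47, SE 0.11, adjusted p = 0.0238), and mt-Rnr1, the 12S rRNA, from 104 ± 10.1 to 179 ± 41.8 CPM (0.78, SE 0.19, adjusted p = 0.0256). The ratio of mitochondrially encoded member counts to mitochondrial rRNA counts was 1.97, 2.24 and 2.49 in young and 1.35, 1.72 and 1.19 in aged marrow. Other cells' markers moved between the marrow groups as well. B cell and plasma cell markers summed to between 3332 and 3554 CPM in young and 4182 and 11580.4 CPM in aged marrow (4 of 14 higher, 8 below 0), and erythroid markers to between 1499 and 1982 CPM and 2403 and 7095 CPM (1 of 15 lower). Monocyte markers summed to between 1312 and 1648 CPM in young and 1786 and 2427 CPM in aged marrow (2 of 8 higher, 1 lower). Osteoclast markers overlapped in sum, with 4 of 9 lower and 1 higher, and macrophage markers had 5 of 14 lower and 2 higher. All 26 cell cycle genes were below 0 and 2 were called. Osteoblast and stromal markers were lower in 3 of 13, T and NK cell markers lower in 2 and higher in 1 of 10, and 0 of 16 neutrophil markers were called. The part of these cells was not tested.

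Whether the age effect differed between the sites was tested by the interaction, the age effect in bone-associated cells minus that in marrow. By edgeR's quasi-likelihood test 0 of 86 members were called, where 0.197% of all genes were called higher and 0.0802% lower. At an unadjusted p below 0.05 there were 29 members, and the share of all genes at that threshold was not counted. Of the members limma-voom called 0, where it called 0.0494% of all genes. DESeq2 called 5, where it called 2.6% of all genes. The smallest adjusted p was 0.125, for mt-Nd5 (1.10, SE 0.29). DESeq2 called mt-Nd5 (1.12, adjusted p = 0.0108), mt-Nd2, mt-Nd6 and mt-Cytb higher and Ndufa6 lower (-0.60, adjusted p = 0.0479). The median difference was -0.34 over nuclear members, of which 70 were below 0, and 0.69 over mitochondrially encoded members, of which 7 were above 0. The medians were -0.23 and 0.57 without young bone-associated replicate 2, again with 0 calls. So the number of calls differed between the sites, but for single members a difference between the age effects did not pass the main test.

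Between sites in young mice, nuclear members were higher in bone-associated cells than in marrow. Of 78 nuclear members 38 rose and 2 fell, where 14.9% of all genes were called higher and 13% lower, and 1 of the 8 mitochondrially encoded members, mt-Nd2, rose. The median log2 fold change (bone-associated against marrow) was 0.47 over nuclear members, of which 68 were above 0, and 0.16 over mitochondrially encoded members, against -0.09 over all genes. All genes were not matched to the members for level, which is set beside the fold changes with exon length. Without young bone-associated replicate 2, 30 nuclear members rose and 1 fell, the nuclear median was 0.32 and the mitochondrial median 0.28, with 2 mitochondrially encoded members higher. Of all genes tested 19.1% were then called in either direction. Calls by complex were 10 higher in complex I, 5 of them in the core. There were 4 in each of complexes II, III and IV and 8 in complex V. Scaling by library size alone moved the median of all genes to -0.50 and the nuclear median to 0.07, and then 17 nuclear members were called higher and 9 lower. Relative to the median of all genes, the nuclear members stood at about the same distance under both scalings. Complex II rose in 4 of 4 genes, with Sdha, the flavoprotein, at 242, 243 and 350 CPM in marrow and 704, 730 and 642 CPM in bone-associated libraries (1.31, SE 0.16, adjusted p = 1.21e-04). Complex III rose in 5 of 8 members, led by Uqcrc1, at 268, 272 and 294 CPM in marrow and 607, 744 and 662 CPM in bone-associated libraries (1.27, SE 0.13, adjusted p = 3.67e-05). Uqcrfs1, the Rieske iron-sulfur protein, rose by 1.16 (SE 0.12, adjusted p = 5.52e-05). In complex V 9 of 17 rose, among them Atp5b (931 ± 47.2 to 2253 ± 202 CPM, 1.27, SE 0.13), Atp5a1 (1.16, SE 0.11) and the delta subunit gene Atp5d (1.10, SE 0.11). For each of these genes the groups did not overlap. In complex I 16 of 36 rose. The catalytic core and the other genes with a complex I name, Ndufa4 among them, had different shares. These were 6 of 7 and 10 of 29, with medians of 0.68 and 0.23. That difference was not tested. In complex IV 4 of 13 rose, Cox6a1 (0.87), Cox5a (0.81), Cox8a (0.67) and Cox6b1 (0.55).

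The 2 nuclear members called lower at the bone-associated site in young mice were Atp5sl and Cox6a2. Atp5sl, which is not a synthase subunit, was at 43.9, 31.3 and 38.7 CPM in marrow and 17.8, 18.3 and 23.2 CPM in bone-associated libraries (-0.94, SE 0.21, adjusted p = 0.00579). Cox6a2 was at 4.87 ± 1.26 and 1.68 ± 0.473 CPM (-1.53, SE 0.53, adjusted p = 0.0494). Without any 1 of the 6 libraries its adjusted p was between 0.0598 and 0.150, and with the mouse as a replicate block it was 0.120. mt-Nd2 went from 208 ± 7.22 to 337 ± 83.6 CPM (0.70, SE 0.18, adjusted p = 0.0117), with an adjusted p of 0.0552 without young bone-associated replicate 3. Under scaling by library size alone its adjusted p was 0.203, and 0 mitochondrially encoded members were called higher and 1 lower, with a median of -0.25. Of the chain genes outside the name pattern, Cyc1 (1.09), Cycs (56.8 ± 1.35 to 93.0 ± 16.6 CPM, 0.71, SE 0.14, adjusted p = 0.00256) and Cox4i1 (0.67, adjusted p = 0.00253) rose, the last 2 not under that scaling (adjusted p = 0.113 and 0.134), and Ndufab1 did not pass (0.23). Within mice, the log2 ratio of the nuclear sum between the sites was 0.59, 0.93 and 0.78 in the 3 young mice, and that of the mitochondrially encoded sum 0.18, -0.38 and 0.39. Erythroid markers also differed between these groups, at 1499 to 1982 CPM in marrow and 12735 to 23756 CPM in bone-associated libraries (12 of 15 higher), as did osteoclast markers (8 of 9 higher), macrophage markers (8 of 14 higher) and monocyte markers (5 of 8 higher). B cell and plasma cell markers went the other way, from between 3332 and 3554 CPM in marrow to between 937 and 1284 CPM (11 of 14 lower, 2 higher), as did T and NK cell markers (5 of 10 lower). Osteoblast and stromal markers had 4 of 13 higher and 1 lower, neutrophil markers 1 of 16 higher and 2 lower, megakaryocyte markers 2 of 6 higher, endothelial markers 1 of 6 lower and cell cycle genes 1 of 26 lower. The part of those cells was not tested.

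Between sites in aged mice, most mitochondrially encoded members rose, while nuclear members were called in both directions. Of 78 nuclear members 21 rose and 7 fell, where 16.7% of all genes were called higher and 16.8% lower. The share of nuclear members called lower was thus below that of all genes. With the mouse as a replicate block 17 nuclear members were higher and 3 lower. Without aged marrow replicate 1, 16 were higher and 2 lower. Over all genes tested, 29% and 24.1% were called in either direction in these 2 settings. Of the 8 mitochondrially encoded members 6 rose and 1, mt-Nd3, fell. The nuclear median of 0.09 became -0.31 under scaling by library size alone, with 9 nuclear members higher and 29 lower, as the median of all genes went from -0.15 to -0.54. The mitochondrial median was 0.97, and 0.57 under that scaling. All 4 genes of complex II rose, with Sdha at 263 ± 31.8 and 519 ± 59.2 CPM (0.98, SE 0.16, adjusted p = 6.84e-04). Uqcrfs1 (1.04, SE 0.12), Uqcrc1 (1.00, SE 0.13), Atp5b (1.03, SE 0.13) and Atp5a1 (0.92, SE 0.11) rose as well. Ndufa10, an accessory complex I subunit, went from 69.5 ± 4.04 to 121 ± 10.9 CPM (0.80, SE 0.12, adjusted p = 4.30e-04). Those that fell, 7 in all, were Cox7c, Atp5sl, Atp5e, Cox6c, Ndufa6, Ndufb3 and Ndufv3. Cox7c, a small complex IV subunit, had the smallest adjusted p among them (-0.67, SE 0.15, adjusted p = 0.00559). Of 80 cytosolic ribosomal protein genes tested, which are not members, 39 fell and 0 rose in this comparison.

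Of the mitochondrially encoded members, mt-Nd2 was at 227, 197 and 211 CPM in aged marrow and 743, 502 and 602 CPM in aged bone-associated libraries, and it rose (log2 fold change 1.54, SE 0.18, adjusted p = 7.43e-05). mt-Cytb went from 1481 ± 152 to 3079 ± 508 CPM (1.06, SE 0.18, adjusted p = 0.00114) and mt-Nd4 from 306 ± 5.61 to 635 ± 85.6 CPM (1.05, SE 0.16, adjusted p = 4.77e-04). mt-Nd5 (1.05), mt-Nd1 (0.89) and mt-Nd6 (0.81) rose too, and mt-Co1 did not pass, at 1813 ± 210 and 2123 ± 408 CPM. mt-Nd3 fell by 1.66 (SE 0.48, adjusted p = 0.0192), with an adjusted p of 0.0711 with the mouse as a replicate block and 0.0650 without aged marrow replicate 1. It was the mitochondrially encoded member with the largest share of windows found in nuclear transcripts and the fewest counts. Both rRNA genes fell, mt-Rnr2 by 1.09 (SE 0.11, adjusted p = 3.18e-05) and mt-Rnr1 by 1.06 (SE 0.19, adjusted p = 0.00128). Within mice, the log2 ratio of the nuclear sum between sites was 0.47, 0.35 and 0.48 in the 3 aged mice, and that of the mitochondrially encoded sum 1.05, 0.37 and 0.96. Cycs went from 50.9 ± 2.70 to 72.1 ± 7.05 CPM (0.50, SE 0.14, adjusted p = 0.0148), a call lost under library size alone (adjusted p = 0.584) and without aged bone-associated replicate 1 or aged marrow replicate 1 or 3 (0.0537 to 0.0595). Cyc1 rose (0.52, SE 0.13, adjusted p = 0.00815), but did not pass under library size alone (adjusted p = 0.485), and Cox4i1 (0.31) and Ndufab1 (-0.44) did not pass. In these aged groups, B cell and plasma cell markers summed to between 4182 and 11580.4 CPM in marrow and 24669 and 29367 CPM in bone-associated libraries, while single markers split, with 5 of 14 called higher, 4 lower and a median log2 fold change of -0.76. Neutrophil markers summed to between 43684 and 61415 CPM in marrow and 23534 and 41247 CPM in bone-associated libraries (8 of 16 lower), and monocyte markers to between 1786 and 2427 CPM and 5046 and 6680.1 CPM (5 of 8 higher, 1 lower). Osteoclast markers were higher in 5 of 9, erythroid markers in 6 of 15, macrophage markers in 7 of 14, osteoblast and stromal markers in 6 of 13 and megakaryocyte markers in 1 of 6, with 0 lower in each. T and NK cell markers had 1 of 10 higher and 3 lower, and cell cycle genes 3 of 26 higher and 2 lower. The part of these cells in the members' levels was not tested.

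**Figure D5:**
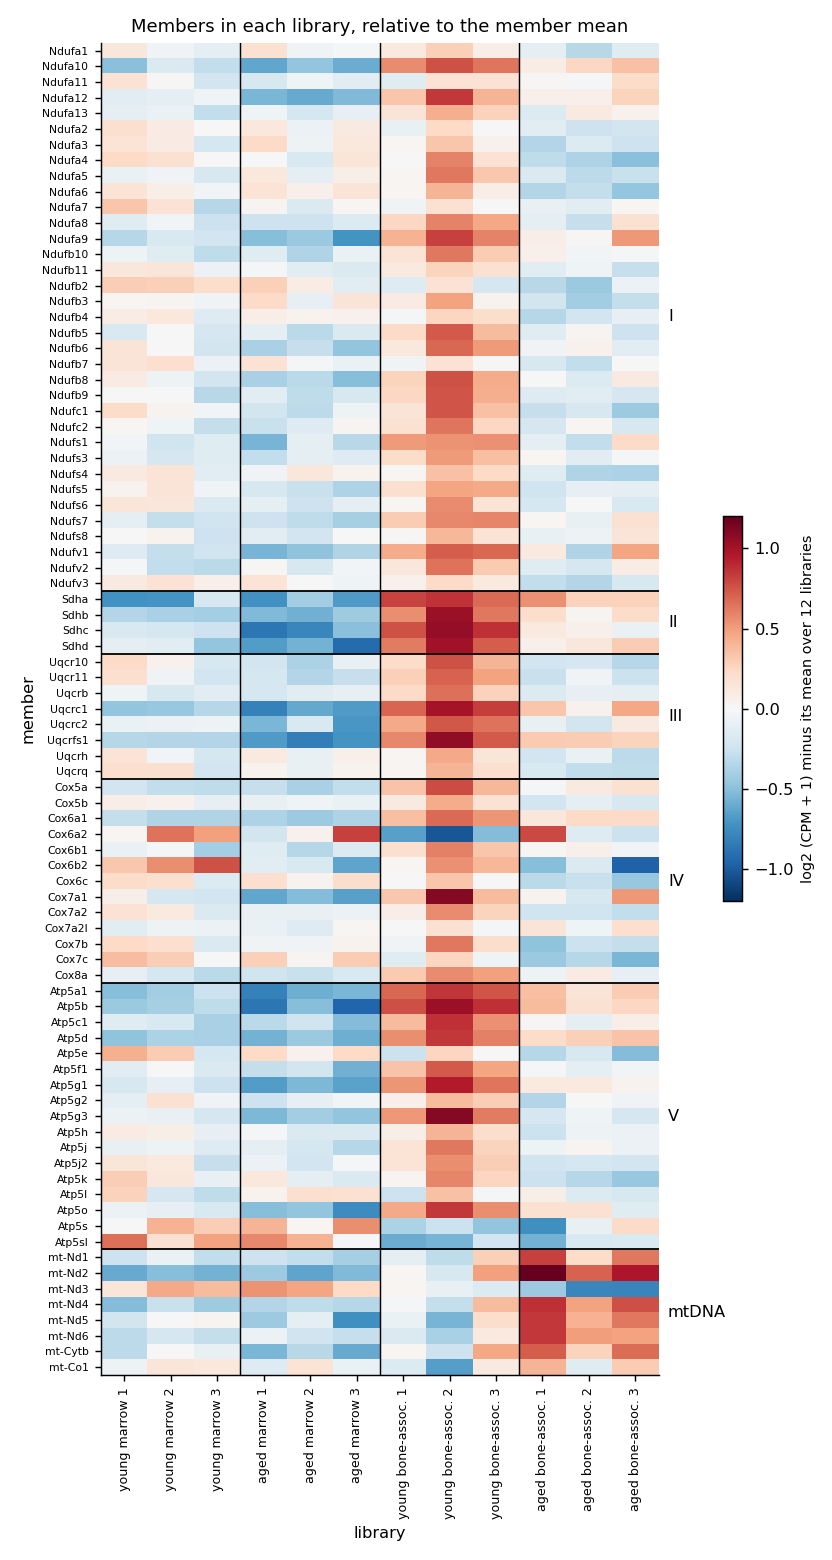
Log2 (CPM + 1) of 85 members, each minus its mean over the 12 libraries (colour), with members in rows by complex and libraries in columns by group. Most nuclear rows are highest in the young bone-associated libraries, replicate 2 above all, and most mtDNA rows are highest in the aged bone-associated libraries.

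Isoform genes with a restricted tissue pattern were at low levels. Of 8 on the list, Cox7b2, Cox8b, Cox8c and Ndufa4l2 did not pass the low-count filter. Cox6b2, a testis form of a complex IV subunit, was at 5.04, 6.11 and 7.18 CPM in young marrow and 3.39, 3.26 and 2.12 CPM in aged marrow, without overlap and without a call (-1.06, adjusted p = 0.172). Cox4i2, a subunit 4 form known from lung, had 1.04 ± 0.0269 CPM in young marrow and 0.158 ± 0.0684 CPM in aged marrow (-2.67, SE 0.83, adjusted p = 0.0770). Cox7a1, a heart and muscle form, was at or below 3.13 CPM in every library. It was called higher in aged bone-associated cells than in aged marrow (2.09, SE 0.74, adjusted p = 0.0471). That p became 0.151 with the mouse as a replicate block and up to 0.139 without single libraries.

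Exon length, the union of all annotated exons of a gene, was set beside the fold changes of the nuclear members. For age in bone-associated cells, the median was -0.51 in the 25 shortest of 76 nuclear members with a known length, -0.43 in the middle 26 and -0.53 in the 25 longest, and all genes tested of the same lengths had medians of -0.10, -0.07 and -0.03. For site in young mice the members' medians were 0.34, 0.26 and 0.68, against -0.43, -0.08 and 0.01 over all genes tested of the same lengths. Fold changes between sites were higher at higher mean levels. The Spearman rank correlation in young mice was 0.62 over these 76 members and 0.355 over 15341 genes tested with a known length. In aged mice it was 0.551 and 0.366, and for age in bone-associated cells -0.133 and 0.083. The part of level in the site medians was not tested.

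Related pathways were described with lists. Among all genes tested, 4.87% were called lower and 4.89% higher with age in bone-associated cells. Without young bone-associated replicate 2, 4.55% were called in either direction. With age in bone-associated cells, the tricarboxylic acid cycle enzymes fell in 11 of 18 genes and rose in 0 (median -0.50), among them Idh2, which makes mitochondrial NADPH (220 ± 12.9 to 122 ± 11.9 CPM, -0.85, SE 0.13), and Idh3a, of the NAD-linked isocitrate dehydrogenase (-0.96, SE 0.16). The carriers and synthase regulators fell in 4 of 8, with Slc25a4, an ADP/ATP carrier (-0.95, SE 0.13, adjusted p = 0.00130), and Atpif1, the inhibitor of ATP hydrolysis by the synthase (-0.96, SE 0.13, adjusted p = 0.00141). Mitochondrial ribosomal proteins fell in 14 of 76 genes tested, with Mrpl51 (-0.80) and Mrpl37 (-0.84). The factors that assemble the complexes fell in 5 of 45 tested and rose in 1, Ttc19, a complex III factor (0.73). Genes of mitochondrial DNA transcription, replication and RNA fell in 3 of 23, Hsd17b10, Tbrg4 and Elac2, which act on mitochondrial RNA. Of 11 regulators of mitochondrial biogenesis, Ppargc1b, a transcriptional coactivator, fell (21.0 ± 8.26 to 7.02 ± 0.959 CPM, -1.58, SE 0.29) and the others did not pass. Glycolysis genes split, with Pfkp (1.04) and the glucose transporter gene Slc2a1 (0.71) higher and Slc2a3, Ldhb and Hk3 lower of 20. Cytosolic ribosomal proteins fell in 2 of 80. Without young bone-associated replicate 2 the genes lower were 6 of 18 in the tricarboxylic acid cycle, 2 of 8 carriers and regulators, 2 of 76 mitochondrial ribosomal proteins, 1 of 23 of mitochondrial DNA and RNA (Hsd17b10), 1 of 11 biogenesis regulators and 0 of 80 cytosolic ribosomal proteins, and 0 of 45 assembly factors were called. Of the list genes named here, Slc2a1, Ldhb, Ttc19, Tbrg4 and Elac2 lost their calls without it.

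In marrow with age, 3.08% of all genes were called lower and 4.37% higher. Of 18 tricarboxylic acid cycle genes 3 fell, among them Idh2 (-1.36, SE 0.13, adjusted p = 1.14e-04) and Idh3a (-0.65), with 0 higher. Among carriers and regulators 1 of 8, Atpif1, fell (-0.58), among glycolysis genes 2 of 20, Ldhb (-1.83) and Pfkm (-1.45), and among assembly factors 0 of 45. Between sites, 15 of 18 tricarboxylic acid cycle genes were higher in bone-associated cells at each age and 0 lower, with Mdh2, malate dehydrogenase, at 1.15 (SE 0.11) in young mice and 0.82 (SE 0.11) in aged mice. Glycolysis genes were higher in 11 of 20 in young and 14 of 20 in aged mice, led by the lactate exporter gene Slc16a3 (2.63, SE 0.17, in young mice) and Slc2a1 (2.34, SE 0.18, in aged mice), with 0 and 1 lower. Mitochondrial ribosomal proteins were higher in 10 and lower in 1 of 76 in young mice and higher in 5 and lower in 7 in aged mice. The shares of all genes called higher and lower were 14.9% and 13% in young mice and 16.7% and 16.8% in aged mice. Mitochondrial ribosomal proteins were thus called no more often than all genes. Those higher in young mice without young bone-associated replicate 2 were 13 of 18 tricarboxylic acid cycle genes, 11 of 20 glycolysis genes and 3 of 76 mitochondrial ribosomal proteins. These pathway lists share no gene with the members.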

How the data were processed

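RNA from sorted cells was made into SMART-Seq v4 and Nextera XT libraries, per the labels' protocols. The deposited values are raw counts per gene symbol. Trimmomatic 0.32, STAR 2.4.2a, HTSeq 0.6.1 and the build GRCm38.p4 are named per the submitters' processing notes. The sources used here do not give the annotation, the strand setting, how reads with several positions were treated, or the meaning of the letter R in the title of aged marrow replicate 2. Library totals ranged from 19564981 to 38317512 counts.

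Counts were fitted with edgeR 4.0.16 (R 4.3.3), with TMM scaling, filterByExpr (16209 genes kept) and the robust quasi-likelihood F-test, in 1 fit of 12 libraries with 8 residual degrees of freedom. Benjamini-Hochberg adjustment was over all genes tested within each comparison, and a call is an adjusted p below 0.05. The SE is the log2 fold change divided by the square root of F. The script was tested on simulated data. With 3 libraries against 3, an exact permutation test cannot go below p = 0.1, so sums are given without a test. No replicate pair agreed within sampling noise (a chi-square test of their counts gave at least 29.2 for each degree of freedom). Codes in the titles tie marrow and bone-associated libraries to the same mouse. Same-code deviations correlated at 0.0686 to 0.0887 in young and 0.228 to 0.338 in aged mice, and other codes at -0.239 to 0.00482. The mouse was therefore also fitted as a block for the site comparisons. Aged and young mice with the same number are different animals.

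Genes named with values in every library were the mitochondrially encoded members, up to 4 nuclear members per complex by adjusted p for age in bone-associated cells and up to 2 for each other comparison. Isoform genes, the chain genes outside the name pattern and up to 2 called genes per pathway list and comparison were named too, and other genes are named to complete a count. Single-gene values of 2 genes that the rule names are not reported here, while counts and medians include them. Members and lists were chosen with earlier results of these data known. Gene positions, lengths and transcripts are from GENCODE M21 (84 of 86 members matched), and promoter windows from RefSeq (GRCm38.p6). Alternatives used limma 3.58.1 (voom), DESeq2 1.42.0, no filter, other scalings, the compared groups alone, a replicate block and each library left out. Figures and summaries used Python 3.11.15 with numpy 2.4.6, pandas 2.3.3 and scipy 1.17.1.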

Additional observations from a re-analysis of the deposited data

How the results depend on the processing

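The number of members called for age in bone-associated cells depended on the processing more than their direction did. In the site comparisons the direction moved as well. Under library size alone, nuclear members below 0 went from 10 to 36 of 78 in young mice and from 33 to 58 in aged mice. For age in bone marrow, 1 member was called, against 0 without the low-count filter, 8 with library size alone, 8 with DESeq2, 2 with scaling from nuclear-encoded genes, 2 with the compared groups only, 2 with the replicate number as a block and 0 to 2 with a library left out. For age in bone-associated cells, 45 were called, against 63 with library size alone, 59 with DESeq2, 39 with limma-voom, 33 without the low-count filter, 11 with the compared groups only, 35 with the replicate block and 6 to 34 with a library left out, while between 72 and 76 of 78 nuclear members stayed below 0. All genes were called there at 9.75%, against 12.1%, 10.9%, 9.87%, 4.67%, 7.06% and 8.77% in the same order. With a library left out that share was 4.34% to 8.57%. For site in young mice, 41 were called, against 27 with library size alone. The mouse as a replicate block gave 38, and leaving a library out gave 30 to 43. For site in aged mice, 35 were called, against 45 with library size alone (where the nuclear median turned from 0.09 to -0.31), 26 with the mouse as a replicate block and 24 to 32 with a library left out. For the interaction, DESeq2 called 5 members and 2.6% of all genes, where the other tools called 0 members. The replicate block gave 0. Library size alone moved the median of all genes by over 0.1 on the log2 scale, to -0.14 for each age comparison. Its nuclear medians for age were -0.25 in marrow and -0.61 in bone-associated cells. The causes were not tested. Of 858 alternative values for 66 calls of named genes, 735 passed in the same direction, 123 did not pass and 0 reversed. Named genes were in part chosen by a small adjusted p in the main fit, so this share cannot stand for all calls of members. Sdhc in marrow did not pass in 8 alternatives, with adjusted p from 0.0507 with the replicate block to 0.148. Members with few counts, such as mt-Nd3, Cox6a2 and Cox7a1, had the least precise fold changes.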
